A study of Mus musculus with 176 samples.

Results

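The nuclear-encoded genes of the mitochondrial respiratory chain were taken from the count table by their symbols. They are the gene names that begin with Nduf and one of the letters a, b, c, s or v, with Sdha to Sdhd, with Uqcr, with Cox4 to Cox8 or with Atp5, apart from 14 matching rows whose names carry the ending "-ps" used for pseudogenes. Of 53546 gene names in the table these made up 0.192%. By symbol, 43 belonged to complex I, 4 to complex II, 8 to complex III, 19 to complex IV and 17 to complex V, and the remaining 12, the Ndufaf and Sdhaf genes, encode assembly factors that help to build complexes I and II without being part of them. Ndufa4, named after complex I, is counted there although its protein is now placed in complex IV.

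The respiratory chain sits in the inner mitochondrial membrane. Complex I takes electrons from NADH and complex II from succinate, complex III hands them to cytochrome c, complex IV passes them to oxygen, and complex V uses the resulting proton gradient to make ATP. Apart from complex II, each complex joins subunits encoded in the nucleus with subunits encoded by mitochondrial DNA, so that transcripts from both genomes are needed. In T cells, effector cells are known for strong glycolysis, whereas regulatory and memory cells are known to rely more on oxidative phosphorylation.

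The cells came from the draining lymph nodes of female C57BL/6J mice immunized intramuscularly with 100 µg of P6, a peptide of apolipoprotein B, in complete Freund's adjuvant at 7 weeks of age and again in incomplete adjuvant at week 2; the nodes were taken at week 4, when the mice were 11 weeks old. Antigen-experienced CD4 T cells (CD44 high, CD62L negative) were sorted singly, and of 176 cells 32 bound the P6:I-Ab tetramer (P6+), all from 1 mouse, while the others did not (P6-). Each was sequenced as a full-length cDNA library by Smart-Seq2. All P6+ cells had the name prefix P6, which 12 P6- cells shared, while the other P6- cells carried 7 further prefixes; the labels do not say what a prefix stands for or which mouse each P6- cell came from. Each group is therefore 1 sample, cells are not replicates of a condition, and no test between P6+ and P6- cells was possible; differences are given as values, beside the spread over cells and prefixes.

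In all, 161 cells passed the limits on reads, genes and mitochondrial share, among them all 32 P6+ cells and 11 P6- cells of prefix P6. The study, which also set a minimum mapping rate, kept all P6+ cells but fewer P6- cells than passed here. The P6- cells used here thus include some that the study left out, and these could not be identified. Their part in the levels, ranges and detection of the P6- cells was not tested. The P6+ cells had a median of 1731610 reads and 4396 detected genes, against 1422870 reads and 3674 genes in the P6- cells of prefix P6 and 1500460 reads and 3432 genes in all P6- cells. The share of reads from mitochondrially encoded genes was 1.29% at the median in P6+ cells, 6.45% in P6- cells of prefix P6 and 3.56% in all P6- cells. Trac, the constant part of the T cell receptor alpha chain, had at least 10 reads in 32 of 32 P6+ and 82.9% of P6- cells. The 5 B cell markers summed to 1045 cpm in P6+ cells, 300.1 cpm in P6- cells of prefix P6 and 548 cpm in all P6- cells, with prefixes from 168 to 849 cpm, and nearly all of it was Ighm, with at least 10 reads in 14 P6+ and 30 P6- cells; Cd79a and Ms4a1 reached 10 reads in 0 cells and Cd79b in 2 P6+ cells. The 4 cycling markers summed to 209 cpm in P6+ cells, 0.324 cpm in P6- cells of prefix P6 and 68.03 cpm in all P6- cells. The part of read depth, mitochondrial share, Ighm and cycling in the values that follow was not tested.

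Since these genes act together, the stretches around the start of 5 of them are shown, in each complex the member with the highest level per kb in P6+ cells among those for which a start window was used here. They were read from RefSeq on GRCm38.p6, run from 120 bases before the annotated start to 30 bases after it, and are written 5′ to 3′ in the direction of the gene: Ndufa1 (small accessory subunit of complex I, chrX:37191209-37191358, minus strand), Sdhb (iron-sulfur subunit of complex II, chr4:140961151-140961300, plus strand), Uqcr10 (small subunit of complex III, chr11:4704315-4704464, minus strand), Cox8a (subunit 8 of complex IV, chr19:7217587-7217736, minus strand) and Atp5b (catalytic beta subunit of complex V, chr10:128083187-128083336, plus strand). Capitals mark matches, on either strand, to GCGCATGC (nuclear respiratory factor 1, NRF1), CCGGAAG (ETS factors), ATGGCGG (YY1), CCAAT, the GC box GGGCGG or the TATA box TATAAA.
Ndufa1: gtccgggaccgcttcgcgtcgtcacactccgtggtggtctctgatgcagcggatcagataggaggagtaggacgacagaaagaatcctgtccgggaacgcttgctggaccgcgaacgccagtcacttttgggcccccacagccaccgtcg
Sdhb: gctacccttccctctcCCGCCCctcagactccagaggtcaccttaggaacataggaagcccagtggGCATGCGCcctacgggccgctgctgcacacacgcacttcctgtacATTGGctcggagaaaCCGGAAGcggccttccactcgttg
Uqcr10: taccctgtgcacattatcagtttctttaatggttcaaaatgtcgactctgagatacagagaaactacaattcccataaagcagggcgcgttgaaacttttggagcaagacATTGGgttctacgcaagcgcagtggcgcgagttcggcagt
Cox8a: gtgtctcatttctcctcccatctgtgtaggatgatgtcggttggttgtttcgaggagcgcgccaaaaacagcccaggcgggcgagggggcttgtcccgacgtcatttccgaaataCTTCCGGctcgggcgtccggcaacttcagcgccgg
Atp5b: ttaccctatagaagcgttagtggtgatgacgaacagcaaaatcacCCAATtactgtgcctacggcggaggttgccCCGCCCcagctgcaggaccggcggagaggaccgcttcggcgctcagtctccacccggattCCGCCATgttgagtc

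The 5 stretches differed in what they held. Sdhb carried an NRF1, an ETS, a GC box and a CCAAT match, Atp5b a CCAAT, a GC box and a YY1 match, Cox8a an ETS match and Uqcr10 a CCAAT match, and in Ndufa1 none of the 6 motifs stood in these bases. Among the members, 81 had a window from 250 bases before to 50 bases after the start. The NRF1 letters occurred in 12 of them (14.8%), among them Sdhb, Uqcrc1, Cox6a1 and Atp5g2, against 3.05% of the windows of all 27025 genes and 6.93% of those of the 6826 genes that passed the level limit in these cells. For the ETS letters the shares were 27.2% of members, 9.93% of all genes and 24.3% of expressed genes, and for YY1 16.05%, 4.69% and 10.97%. The GC box stood in 48.1% of members, above the 38.2% of all genes and below the 71.1% of expressed genes, and the TATA box in 11.1%, 15.7% and 8.26%. CCAAT showed little spread, with 43.2%, 41.1% and 43.3%. A match is a run of letters and was not tied to binding, and motifs overlapping each other were counted separately.

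Summed over all members, respiratory chain transcripts were somewhat higher in P6+ cells. Pooled over cells, they made up 13461 counts per 1000000 (cpm; 95% Poisson interval 13432 to 13491) in P6+ cells, 11080 cpm (11027 to 11132) in P6- cells of prefix P6 and 11439 cpm (11424 to 11453) in all P6- cells. The level in P6+ cells was thus 1.21 times that in the P6- cells with the same prefix (log2 ratio 0.28) and 1.18 times that in all P6- cells (log2 ratio 0.23). Other gene lists, given below, went both ways when summed, with glycolysis at log2 ratios of 0.44 and 0.35. The intervals treat reads as independent counts and leave out the spread over cells. Reads of these libraries may repeat the same molecule, so the intervals are too narrow even for the counting error of molecules. The P6- cells of single prefixes ranged from 9800 cpm (P2) to 12791 cpm (P8), so that P6+ cells stood above all 8. Single cells overlapped widely: the lowest, median and highest were 6647, 12711 and 22875 cpm in P6+ cells, 3075, 11651 and 16442 cpm in P6- cells of prefix P6, and 1487, 10751 and 37440 cpm in all P6- cells. Of 32 P6+ cells, 23 lay above the median of the P6- cells of prefix P6 and 25 above that of all P6- cells. Without mitochondrially encoded genes in the totals the log2 ratios were 0.22 and 0.19. Across P6+ cells the summed level and the number of detected genes had a Spearman correlation of 0.48. It was -0.06 across P6- cells of prefix P6 and 0.16 across all P6- cells. The part of detected genes in the summed ratio was not tested.

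**Figure D1:**
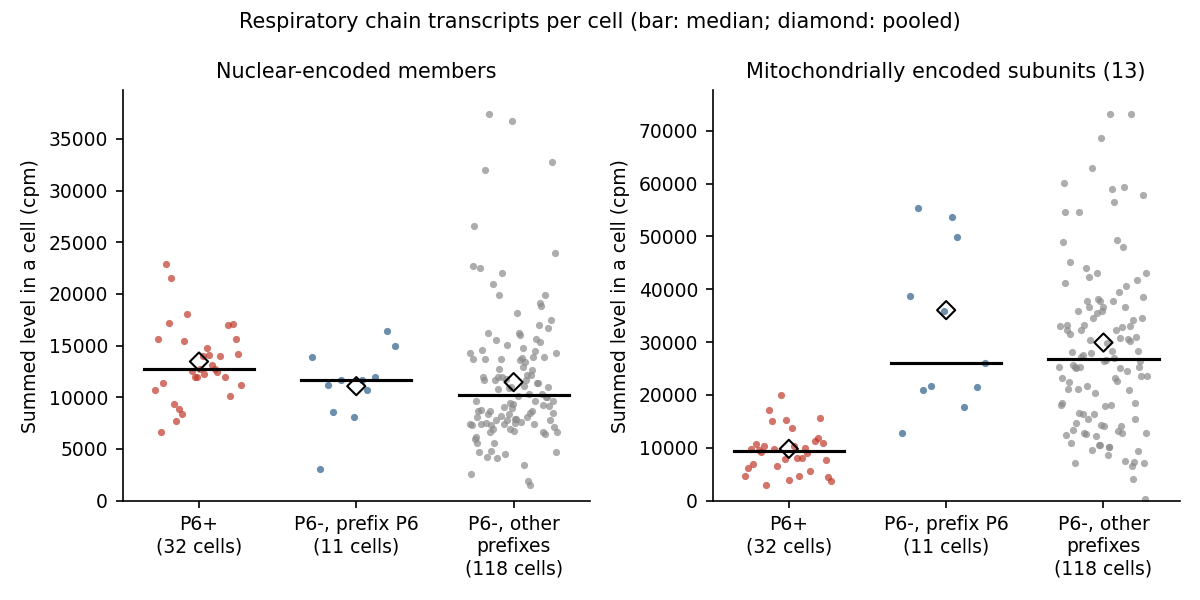
Summed level of all nuclear-encoded members (left) and of the 13 mitochondrially encoded subunits (right) in every passing cell, in cpm; each point is a cell, bars are medians over cells and open diamonds are values pooled over the reads of a group. The nuclear-encoded sums overlap, with medians of 12711 cpm in P6+ cells, 11651 cpm in P6- cells of prefix P6 and 10209 cpm in P6- cells of the other prefixes, whereas the mitochondrially encoded sums of P6+ cells reach no higher than 20034 cpm and those of P6- cells up to 73217 cpm.

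The 13 subunits encoded by mitochondrial DNA lay the other way. They held 9798 cpm in P6+ cells, 36052 cpm in P6- cells of prefix P6 and 30385 cpm in all P6- cells (log2 ratios -1.88 and -1.63). Of the 13, 10 passed the level limit, and none of these was past 2-fold higher in P6+ cells, while 10 were past 2-fold lower within prefix P6, against 23.7% of all genes, and 7 over all prefixes, against 29.3%. The summed nuclear-encoded level divided by the summed mitochondrially encoded level was 1.37 in P6+ cells, 0.307 in P6- cells of prefix P6 and 0.376 in all P6- cells. In single cells this ratio ran from 0.522 over a median of 1.61 to 3.30 in P6+ cells, and from 0.0794 over 0.410 to 1.09 in the P6- cells of prefix P6, and the groups overlapped. In all P6- cells it ran from 0.0594 over 0.386 to 91.4. The limit on mitochondrial share that cells had to pass bears on the lower part of this quantity, and RNA quality and mitochondrial RNA content cannot be told apart here. Across the 32 P6+ cells, which come from 1 mouse, the 2 sums, both set against the same read total of a cell, had a Pearson correlation of -0.09 and a Spearman correlation of -0.11.

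How members compared with other genes, gene by gene, depended on the limit on low levels. A gene was taken where the mean of both groups was at least 5 cpm, and past 2-fold means a log2 ratio of at least 1 in size with 1 cpm added to both values; 85 members entered, some of them through only one of the groups. Within prefix P6, 37 members (43.5%) were past 2-fold higher in P6+ cells, against 49.6% of all 7915 genes, and 7 (8.24%) were past 2-fold lower, against 23.7%. Over all prefixes, 15 (17.6%) were higher, against 23.9% of 9029 genes, and 7 lower, against 29.3%. The 15 became 8 as the mean of single cells, in thinned cells or with 10 cpm added. The 7 lower within prefix P6 became 14 with cells of a mitochondrial share under 5% alone. They became 4 for structural subunits alone and 3 without the highest cell of each gene in each group. The median log2 ratio of all genes within prefix P6 was 0.97, and that of the members, 0.59, lay below it. Over all prefixes the medians were -0.04 and 0.26. With a limit of 20 cpm, 32 of 77 members (41.6%) were higher within prefix P6, against 40.6% of all genes, and 7 lower, against 27.7%, and the median of the members, 0.55, then lay above the 0.33 of all genes. With no limit, 37.9% of members and 9.84% of all genes were higher, and 6.80% and 4.075% lower. All gene names enter there, with a median log2 ratio of 0, so these shares do not compare genes of like level. Relative to the median gene, members within prefix P6 therefore stood lower at 5 cpm and higher at 20 cpm, while over all prefixes they stood higher at both (0.26 against 0.07 at 20 cpm).

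The 11 P6- cells of prefix P6 also differed from the other P6- cells. With the tetramer sign held, 13 of 83 members were past 2-fold higher in these 11 cells than in the other P6- cells, against 19.8% of 8289 genes, and 26 were lower, against 50.9%. The median log2 ratio was -0.36 for the members and -1.09 for all genes. A large gap between P6+ and P6- cells within prefix P6 can thus lie in the P6- cells of that prefix, and the values of the other prefixes are given beside it.

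**Figure D2:**
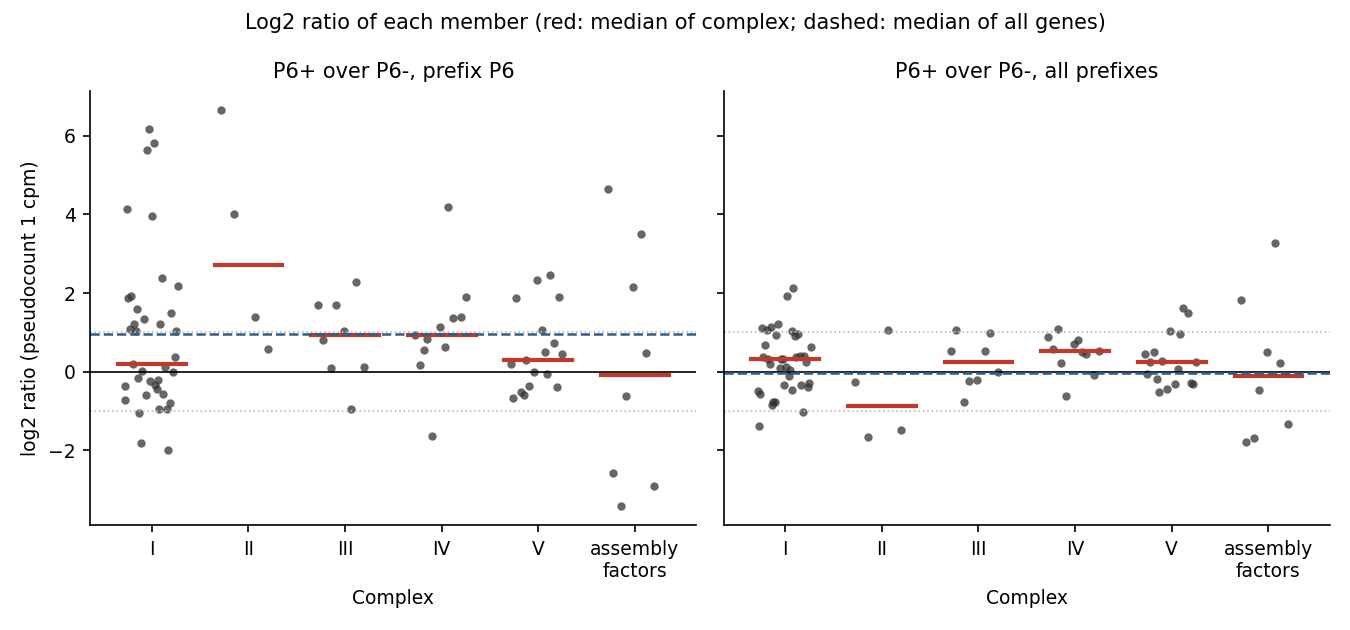
Log2 ratio of P6+ over P6- cells for each member that passed the level limit, by complex, within prefix P6 (left) and over all prefixes (right), with 1 cpm added; red bars are medians of a complex, the dashed line is the median of all genes (0.97 and -0.04) and dotted lines mark 2-fold. The ratios within prefix P6 run from -3.41 (Ndufaf3) to 6.65 (Sdha), and those over all prefixes from -1.78 (Ndufaf8) to 3.27 (Ndufaf2).

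By complex, complex IV was the one whose P6+ level lay above all 8 prefixes of P6- cells. Its 19 genes summed to 2922 cpm in P6+ cells, 1992 cpm in P6- cells of prefix P6 and 2013 cpm in all P6- cells, log2 ratios of 0.55 and 0.54. The P6- cells of the 8 prefixes ranged from 1377 to 2500 cpm, all below the P6+ cells, and they also stayed below with the mitochondrially encoded genes left out of the totals (1422 to 2633 cpm, against 2964 cpm). In single cells the lowest, median and highest were 434, 2750 and 6274 cpm in P6+ cells, 302, 1960 and 4130 cpm in P6- cells of prefix P6, and 1.67, 1678 and 23896 cpm in all P6- cells. The ranges overlapped, and 26 of 32 P6+ cells lay above the median of the P6- cells of prefix P6 and 30 above that of all P6- cells. Leaving out any single cell kept the log2 ratio between 0.44 and 0.78 within prefix P6 and between 0.49 and 0.61 over all prefixes.

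The other complexes gave no such order. Complex I summed to 3747, 3553 and 3204 cpm in P6+ cells, P6- cells of prefix P6 and all P6- cells. The P6+ value lay above 7 of the 8 prefixes and inside their range (2390 to 3839 cpm). Its 7 core subunits that carry out the reaction summed to 786, 1026 and 789 cpm, and its 36 other genes to 2962, 2528 and 2415 cpm. These are mostly accessory subunits but include Ndufa4 and the processed pseudogenes Ndufa11b, Ndufb4c and Ndufs6b. Complex III held 1776, 1277 and 1558 cpm, and complex V 4152, 3544 and 3681 cpm; both P6+ values were above 6 of the 8 prefixes. Complex II held 661 cpm in P6+ cells, 161 cpm in P6- cells of prefix P6 and 680 cpm in all P6- cells, with prefixes from 144.2 to 1334 cpm. Its log2 ratio within prefix P6, 2.03, was 1.38 with cells of a mitochondrial share under 5% alone and between 1.81 and 2.83 when single cells were left out, the highest without 1 of the 11 P6- cells. Over all prefixes, where it was -0.04, it ran from -0.26 to 0.09 when single cells were left out and was 0.01 as the mean of cells. The pooled ratio thus had no settled direction. The median cell was at 298 cpm in P6+, 4.25 cpm in P6- cells of prefix P6 and 3.91 cpm in all P6- cells. Of 32 P6+ cells, 23 lay above either P6- median, so the reading of complex II depended on the measure. The assembly factors held 203, 553 and 302 cpm, with 2 prefixes below the P6+ cells. The log2 ratio of complex I within prefix P6, 0.08, became -0.09 when only cells with a mitochondrial share under 5% were kept, which left 5 of the 11 P6- cells, and was -0.01 at its lowest when single cells were left out.

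**Figure D3:**
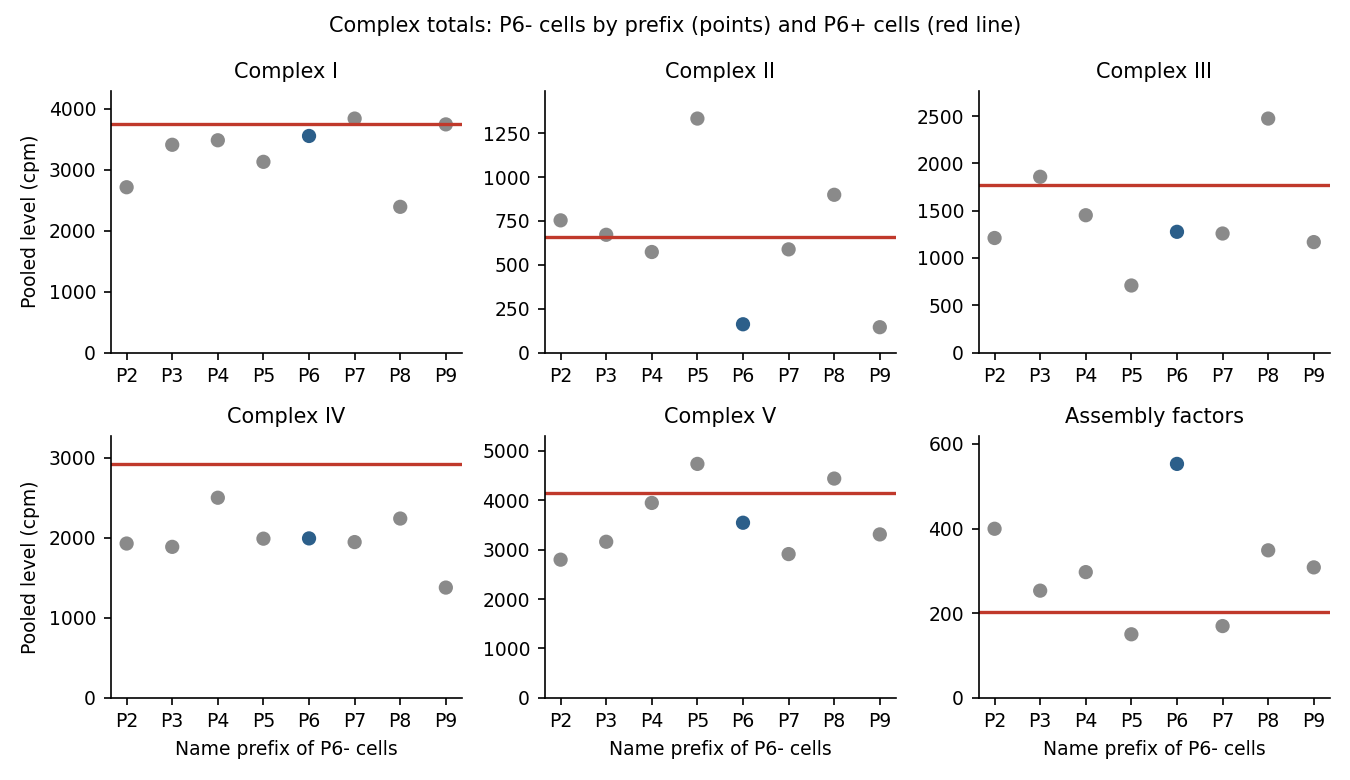
Pooled level of each complex and of the assembly factors, in cpm, in the P6- cells of each of 8 name prefixes (points, prefix P6 in blue) and in the 32 P6+ cells (red line). The P6+ line lies above all points for complex IV (2922 against 1377 to 2500 cpm) and between points in the other panels.

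Within complex IV, 11 of 19 genes passed the level limit; 5 were past 2-fold higher and 1 lower within prefix P6, and 1 was higher and 0 lower over all prefixes. Counts by complex, here and for the other complexes, stand beside 49.6% higher and 23.7% lower of all genes within prefix P6 and 23.9% and 29.3% over all prefixes, and 5 of 11 lies near the first of these shares. Cox4i1, the ubiquitous form of subunit 4 and among the first nuclear-encoded subunits built into the complex, was at 999 cpm in P6+ cells, 523 cpm in P6- cells of prefix P6 and 539 cpm in all P6- cells (log2 ratios 0.93 and 0.89). Its lowest, median and highest cells were 38.8, 917 and 2337 cpm in P6+ cells and 0, 453 and 3633 cpm in all P6- cells. It reached 10 reads in 32 of 32 P6+ cells and in 69.8% of P6- cells, and the P6+ level lay above all 8 prefixes (369 to 849.8 cpm). Cox8a was at 403 cpm in P6+ cells, with 259.6 cpm in the median cell, against 274 cpm in P6- cells of prefix P6 and 189 cpm in all P6- cells (log2 ratios 0.55 and 1.09), and it was the gene past 2-fold over all prefixes. A single P6- cell reached 23874 cpm and gave 32.4% of all P6- reads of this gene. Cox6b1, which links the monomers of the complex IV dimer, was at 294, 133.7 and 179 cpm, and Cox7a2 at 193, 73.9 and 141.6 cpm. Cox6a1 differed between the comparisons, with 265 cpm in P6+ cells, 100.2 cpm in P6- cells of prefix P6 and 281 cpm in all P6- cells. Cox7b, encoded on the X chromosome, was at 114.2, 30.05 and 79.4 cpm. Cox7a2l, a relative of Cox7a2 known for its part in respiratory supercomplexes and for a short allele in C57BL/6 mice, was the one gene of this group past 2-fold lower within prefix P6, at 176 cpm in P6+ cells against 554 cpm, and at 269.6 cpm in all P6- cells.

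The tissue-restricted forms of complex IV subunits were not detectable at this depth. If reads are taken as independent, 0 reads in the P6+ cells allow a level of up to 0.0506 cpm (3 counts over the group). Cox4i2 (known from lung), Cox6a2 and Cox8b (heart and skeletal muscle), Cox6b2 and Cox8c (testis) had 0 reads over all 176 cells. Cox7a1 (muscle), Cox7b2 and the complex I paralog Ndufa4l2 (known from low oxygen) had 1 read each, that of Cox7b2 in a cell that did not pass. The ubiquitous partner Ndufa4 was at 266 cpm in P6+ cells, 262.7 cpm in P6- cells of prefix P6 and 138.03 cpm in all P6- cells, and reached 10 reads in 24 of 32 P6+ cells, 5 of 11 P6- cells of prefix P6 and 35.7% of all P6- cells. Its P6+ level was above all 8 prefixes (66.3 to 263 cpm) by a margin of a few cpm.

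Complex II, the succinate dehydrogenase, consists of the flavoprotein Sdha, the iron-sulfur protein Sdhb and the membrane anchors Sdhc and Sdhd. Sdha was at 262 cpm in P6+ cells, 1.62 cpm in P6- cells of prefix P6 and 316 cpm in all P6- cells, so that the gap within prefix P6, the widest of all members, lay in the 11 P6- cells: their highest cell was at 4.25 cpm, and the other P6- cells together were at 342 cpm. Sdha reached 10 reads in 6 of 32 P6+ cells and in 14.7% of P6- cells, and its median cell was at 0.897 and 0.820 cpm. Sdhb was at 328, 123.2 and 156 cpm in P6+ cells, P6- cells of prefix P6 and all P6- cells and reached 10 reads in 50% of P6+ and 24.8% of P6- cells. Its median P6+ cell was at 47.97 cpm. Sdhc (16.3, 0.0648 and 53.8 cpm) and Sdhd (54.7, 36.1 and 154 cpm) were the anchors, past 2-fold lower in P6+ cells over all prefixes with log2 ratios of -1.66 and -1.48. For Sdhd a single cell gave 61.2% of the P6+ reads and another 37.8% of the P6- reads, and the cell with the most Sdhd was at 13908 cpm. Of the 4 genes of complex II, 3 were past 2-fold higher and 0 lower within prefix P6, and 1 was higher and 2 lower over all prefixes.

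In complex I, 37 of 43 genes passed the level limit; 17 were past 2-fold higher and 3 lower within prefix P6, and 7 were higher and 2 lower over all prefixes. The share of 17 in 37 lies near the 49.6% of all genes. GENCODE M21 holds the Ndufb1 locus under its older symbol, as a non-coding transcript from a bidirectional promoter, so that its values rest on a locus without an annotated coding transcript there. Ndufb1, an accessory subunit of the membrane arm, was at 113.5 cpm in P6+ cells, 48.2 cpm in P6- cells of prefix P6 and 25.4 cpm in all P6- cells (log2 ratios 1.22 and 2.12), above all 8 prefixes (10.3 to 51.6 cpm). It reached 10 reads in 59.4% of P6+ cells and 31.01% of P6- cells, with cells from 0 over 56.1 to 700.5 cpm in P6+ and from 0 over 0 to 253 cpm in P6- cells. Ndufs5, an accessory subunit facing the intermembrane space, was at 58.9, 0.0648 and 14.8 cpm, again above all prefixes (up to 24.8 cpm), but from 9 of 32 P6+ and 12.4% of P6- cells. For Ndufc2 and Ndufa9, both accessory subunits, the wide gap within prefix P6 lay in the P6- cells of that prefix: Ndufc2 was at 71.6 cpm in P6+ cells with 0 reads in those 11 cells, and Ndufa9 at 110.5 against 1.23 cpm, but in all P6- cells they were at 57.5 and 87.4 cpm.

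The complex I genes with the lowest ratios rested on few cells. Ndufs3, a core subunit of the arm that binds ubiquinone, was at 51.7 cpm in P6+ cells and 183 cpm in P6- cells of prefix P6, where a single cell gave 99.9% of its reads; it was at 88.2 cpm in all P6- cells. Ndufa8 was at 66.4 cpm against 269 cpm, of which a single cell gave 52.9%, and 83.7 cpm in all P6- cells. Ndufv1, the core subunit that binds NADH, was at 49.4, 63.8 and 130.5 cpm, with at least 10 reads in 4 of 32 P6+ and 7.75% of P6- cells.

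In complex III all 8 genes passed, 4 past 2-fold higher and 0 lower within prefix P6, and 1 higher and 0 lower over all prefixes. The gene past it in the second comparison was Uqcrfs1, the Rieske iron-sulfur protein, at 256, 146 and 122.6 cpm and above all prefixes (4.92 to 197.5 cpm); it is named because of its value. Uqcrh, the hinge protein that holds cytochrome c1, was at 219, 44.3 and 110.9 cpm and reached 10 reads in 78.1% of P6+ and 36.4% of P6- cells. The core protein Uqcrc1 differed little in pooled level (735, 679 and 740.4 cpm), although its median cell was at 95.01 cpm in P6+, 3.27 cpm in P6- cells of prefix P6 and 2.06 cpm in all P6- cells.

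In complex V all 17 genes passed, 5 past 2-fold higher and 0 lower within prefix P6, and 3 higher and 0 lower over all prefixes. Of the catalytic subunits, Atp5b was at 950.4, 667 and 899 cpm and Atp5a1 at 874, 764 and 636 cpm in P6+ cells, P6- cells of prefix P6 and all P6- cells. The log2 ratios were 0.51 and 0.08 for Atp5b and 0.19 and 0.46 for Atp5a1. Atp5b reached 10 reads in 71.9% of P6+ and 47.3% of P6- cells. Atp5g1, Atp5g2 and Atp5g3 encode the same mature c subunit of the membrane ring with different import sequences, and their values did not run together. Atp5g2 was at 112.1 cpm in P6+ cells, 19.7 cpm in P6- cells of prefix P6 and 35.9 cpm in all P6- cells (log2 ratios 2.45 and 1.62), just above the highest prefix (106.9 cpm), with 50% of P6+ and 17.8% of P6- cells at 10 reads. Atp5g1 was at 127.9, 34.1 and 107.3 cpm, and Atp5g3 at 164, 212 and 135.7 cpm. In all 3 the cells at 0 or near it were frequent, with P6+ medians of 0.555, 14.1 and 56.2 cpm for Atp5g1, Atp5g2 and Atp5g3.

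Among the assembly factors 8 of 12 passed the level limit; 3 were past 2-fold higher and 3 lower within prefix P6, and 2 higher and 3 lower over all prefixes. The 3 lower ones were the same in both, Ndufaf3 and Ndufaf4, which act in early steps of the arm that binds ubiquinone, and Ndufaf8, a partner of Ndufaf5. Ndufaf3 was at 16.1 cpm in P6+ cells, 179.9 cpm in P6- cells of prefix P6 and 53.6 cpm in all P6- cells, with 2 of 32, 2 of 11 and 8.53% of cells at 10 reads. Ndufaf4 was at 19.1, 150.2 and 49.7 cpm, and 1 cell gave 99.1% of its P6+ reads. Ndufaf8 was at 19.9, 122.8 and 70.8 cpm, with 4 of 32, 4 of 11 and 16.3% of cells. Among the higher ones, Ndufaf1 (24.1, 0 and 6.15 cpm) and Ndufaf2 (10.3, 0 and 0.177 cpm) reached 10 reads in 1 P6+ cell each, which gave 100% and 99.8% of their P6+ reads. In the median cell the summed assembly factors were at 30.6 cpm in P6+, 200.4 cpm in P6- cells of prefix P6 and 2.40 cpm in all P6- cells, so that the order of the groups changed with the P6- cells used.

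The P6+ level lay above that of all 8 prefixes of P6- cells for 10 of 85 members (11.8%), against 14.2% of all genes, and below all of them for 0, against 2.19%. The 10 were Ndufa4, Ndufb1, Ndufb6, Ndufs5, Ndufs6, Uqcrfs1, Cox4i1, Atp5g2, Atp5k and Ndufaf2. Ndufb6 was at 50.7 cpm against 6.64 to 48.1 cpm over the prefixes, Ndufs6 at 157 cpm against 0.221 to 139.3 cpm, and Atp5k, subunit e of the ATP synthase, at 60.7 cpm against 4.90 to 39.7 cpm. Of the exonic bases, 38.9985% in Ndufb6, 12.7% in Ndufb1 and 65.6% in Ndufaf2 also lie in another gene. Reads from shared bases may not be assignable to a single gene, and the effect on these levels was not tested.

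More members were detected in a P6+ cell than in a P6- cell. With every cell thinned to 500000 reads, the lowest, median and highest number of members with at least 10 reads were 12, 31.5 and 71 in P6+ cells, 8, 21 and 39 in P6- cells of prefix P6, and 1, 19 and 64 in all P6- cells. Without thinning the medians were 33.5, 23 and 21. All genes followed the same order, with medians of 1377, 1056 and 1030 genes at 10 reads in the thinned cells. Before thinning, 33 members reached 10 reads in at least 50% of the P6+ cells, against 9 in P6- cells of prefix P6 and 3 in all P6- cells. These were 38.8%, 10.6% and 3.53% of the 85 members that passed the level limit, against 9.004%, 4.98% and 3.78% of all 9029 genes that did, a comparison not matched for level. Cox4i1 was the one member that did so in every P6+ cell. Atp5md, a small subunit of the membrane part of complex V, came next, with 81.2% of P6+ and 63.6% of all P6- cells. For 11 members no P6+ cell reached 10 reads, and for 10 no P6- cell did. Among members with at least 100 reads, the cell with the most gave 23.95% of the P6+ reads, 57.3% of those in the 11 P6- cells of prefix P6 and 17.02% of those in all P6- cells, as medians over members.

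**Figure D4:**
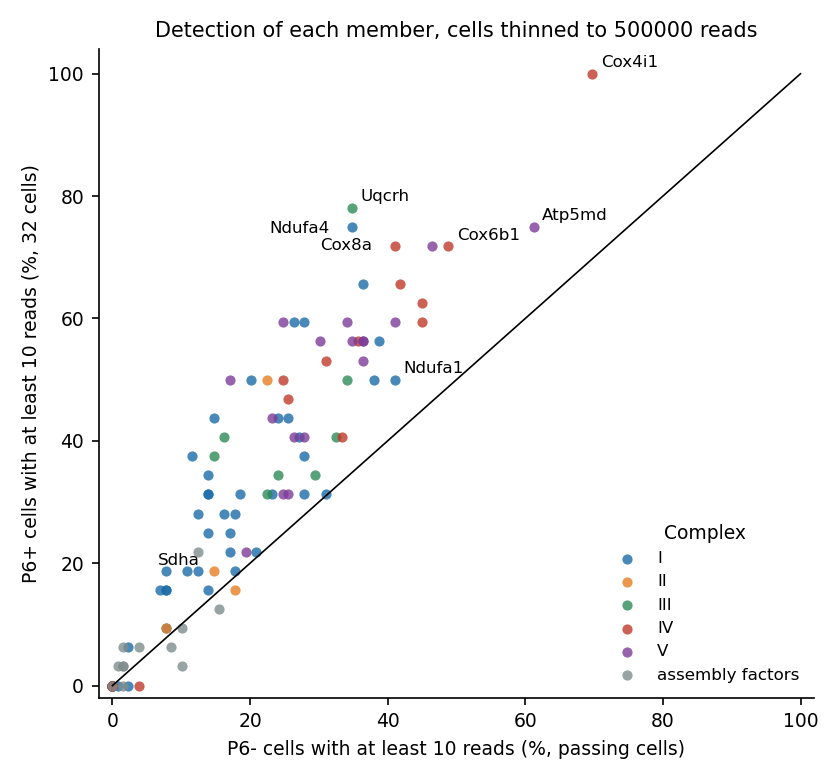
Percent of cells with at least 10 reads of a member, in P6+ cells (vertical axis) and all passing P6- cells (horizontal axis), after thinning every cell to 500000 reads; each point is a member, coloured by complex, and the line marks equal shares. The points of 83 members lie above the line and those of 9 below it; among genes that passed the level limit, 94.1% of members and 73.03% of all genes lie above. Cox4i1, at the top right, is found in 100% of P6+ and 69.8% of P6- cells.

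Levels of different genes were compared per kb of exonic length, taken from GENCODE M21 on GRCm38 for all members but Ndufb11b. In P6+ cells complex I ran from 2.41 cpm per kb for Ndufab1, the mitochondrial acyl carrier protein, to 387 cpm per kb for Ndufa2, with a median of 52.6 cpm per kb over 37 genes. Complex II ran from 5.02 (Sdhc) to 146 cpm per kb (Sdhb), complex III from 53.1 (Uqcrq) to 198.1 (Uqcr10), complex IV from 23.5 (Cox5a) to 650.3 (Cox8a), and complex V from 2.76 (Atp5l) to 279 cpm per kb (Atp5a1). Subunits of the same complex thus differed widely in level per length, most narrowly in complex III, with a 3.73-fold range. The bottom of the order is the less certain end, since 68.99% of the 100-base stretches of the Atp5l transcript also occur in transcripts of other genes and such reads were not counted. Taken per kb of the longest coding transcript, the median of complex I was 83.8 cpm per kb over 36 genes, that of complex IV 213, that of complex V 163.5 and that of the assembly factors 13.9 cpm per kb, against 52.6, 119.3, 75.2 and 8.16 cpm per kb of exonic length. By the longest transcript, Ndufab1, Sdhc, Uqcrq and Cox5a stayed lowest in their complexes and Atp5o took the place of Atp5l, while the highest became Ndufa4, Sdhb, Uqcrc1, Cox4i1 and Atp5e. In all P6- cells the lowest per kb of exonic length were again Ndufab1, Sdhc, Uqcrq, Cox5a and Atp5l. The highest differed from those of P6+ cells in each of the 5 complexes and were Ndufa1, Sdhd, Uqcrc1, Cox6a1 and Atp5c1. This depended on the length used. By the longest transcript the highest in all P6- cells were Ndufa1, Sdhb, Uqcrc1, Cox4i1 and Atp5b, and Sdhb, Uqcrc1 and Cox4i1 were highest in P6+ cells too. Whether neighbours in these orders differ beyond the spread over cells was not tested.

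**Figure D5:**
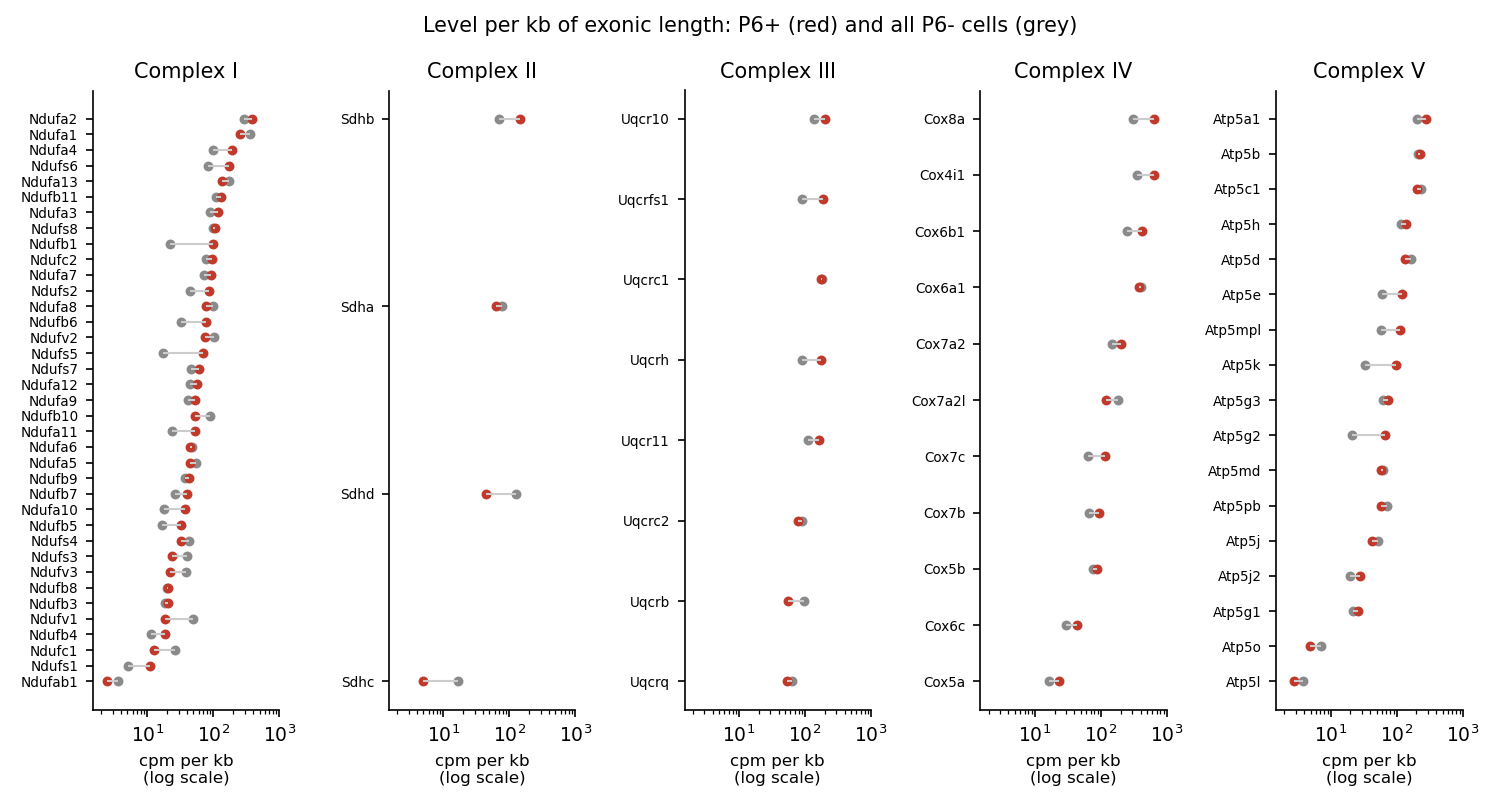
Level per kb of exonic length of each member that passed the level limit, in cpm per kb on a log axis, ordered within each complex by the P6+ value; red points are the P6+ cells pooled and grey points all passing P6- cells pooled. Within a complex the members span from 3.73-fold (complex III) to 160-fold (complex I) in P6+ cells.

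Some members cannot be measured cleanly. In the annotation 37 members share exonic bases with another gene, 15 of them over more than 10% of their length. The counts are not stated to use strand, so reads from shared bases may not be assignable to a single gene. The effect on the levels was not tested. For 33 members some 100-base stretch recurs in another gene, over more than 50% of the transcript in Atp5l and Sdhaf1. Ndufa11b, Ndufb4c, Ndufs6b and Cox6c2 are annotated as processed pseudogenes, and none of the 4 passed the level limit. Atp5o stood in 2 rows of the table, 1 of them with 0 reads, and averaging rows of equal name as the study did lowered its level by the same factor in all cells; 47.9% of its exonic bases also lie in another gene.

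Other gene lists of mitochondrial function are set beside the shares of all genes, 49.6% higher and 23.7% lower within prefix P6 and 23.9% and 29.3% over all prefixes. Of the 18 genes of the tricarboxylic acid cycle, 6 of 16 were past 2-fold higher and 3 lower within prefix P6, and 3 of 18 higher and 6 lower over all prefixes, with median log2 ratios of 0.34 and -0.32. Cytochrome c, coenzyme Q synthesis and carriers showed 7 higher and 5 lower of 17, and 3 higher and 7 lower of 18, with medians of 0.04 and -0.28. Assembly factors of complexes III, IV and V showed 12 higher and 2 lower of 19, and 3 higher and 5 lower of 21, with medians of 1.55 and 0.15. For the regulators of mitochondrial biogenesis it was 3 and 3 of 8, and 1 and 5 of 9, with medians of 0.02 and -1.10. The mitochondrial ribosomal proteins showed 38 higher and 10 lower of 66, and 15 and 16 of 72, with medians of 1.49 and 0.07, against 0.97 and -0.04 for all genes. Glycolysis stood at 7 and 3 of 16, and 4 and 2 of 16, with medians of 0.58 and 0.55. Cytosolic ribosomal proteins, which are detected in most cells, showed 8 higher and 1 lower of 77, and 1 and 0 of 76, with medians of 0.06 and 0.06. The members' medians of 0.59 and 0.26 fall among these lists. Summed log2 ratios were 0.44 and 0.35 for glycolysis and 0.37 and 0.12 for mitochondrial ribosomal proteins. They were 0.64 and -0.21 for assembly factors of complexes III, IV and V. The other lists were lower in P6+ cells in both comparisons, from -0.77 and -0.78 (biogenesis regulators) to -0.07 and -0.07 (cytosolic ribosomal proteins). With 0.28 and 0.23 for the members, a higher sum was not particular to them.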

How the data were processed

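Counts per gene and cell were deposited by the authors as whole uniquely mapped reads: 150-base paired-end Smart-Seq2 reads, aligned with STAR 2.6.0a to GRCm38 with Ensembl annotation and counted by STAR without normalization. A second deposited table gave the tetramer sign, another (non-numeric) value per cell, and matched the labels in all 176 cells. Reads carry no molecular identifiers, and 23 cycles of pre-amplification were used.

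Rows of equal name were averaged, as in the study (81 names). Cells with under 500000 reads (7 cells), under 2000 genes (0 cells) or a mitochondrial share of 10% or more (8 cells) were left out. The study's further minimum mapping rate of 75% needs values not used here. The study kept all P6+ cells and 97 P6- cells, a smaller number of P6- cells than passed here. Doublets were not called, since cells were sorted singly into wells. Reads were pooled per group and given in cpm with exact Poisson intervals. Detection used at least 10 reads, with cells thinned to 500000 reads by a fixed seed. Python 3.11.15 with pandas 2.3.3, numpy 2.4.6 and scipy 1.17.1 was used, and R 4.3.3 with edgeR 4.0.16 and DESeq2 1.42.0 for alternative scaling factors only. Limits were a mean of 5 cpm, a pseudocount of 1 cpm and 2-fold.

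Genes were named by rule: all Sdh genes, the isoform sets, the highest and lowest member per kb in each complex, and the 5 highest and 5 lowest ratios in each comparison. Further genes were chosen after their values were seen: Ndufa1, Uqcrc1, Uqcrfs1, Uqcrh, Ndufb6, Ndufs6, Atp5b, Atp5k, Atp5md and members named for overlap with other genes. The members and lists were chosen with earlier results of these data known.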

Additional observations from a re-analysis of the deposited data

How the results depend on the processing

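No paired analysis was possible because each group is 1 sample and the labels give no replicate numbers. The direction of the summed log2 ratio held under all alternatives run. Within prefix P6 it was 0.28, and it became 0.30 without limits on cells, 0.35 with at least 1000000 reads per cell, 0.26 as the mean and 0.13 as the median of single cells, 0.22 with edgeR's TMM, 0.20 with DESeq2's size factors, 0.22 without mitochondrially encoded genes in the totals and 0.33 for structural subunits alone. Over all prefixes it was 0.23, and it became 0.20 without limits on cells, 0.24 with at least 1000000 reads, 0.19 as the mean and 0.24 as the median of single cells, 0.20 with TMM, 0.19 without mitochondrially encoded genes, 0.20 in thinned cells and 0.25 for structural subunits. Leaving out each cell in turn gave 0.21 to 0.33 and 0.20 to 0.27. The next settings, a lower limit on mitochondrial share and the removal of highest cells, were chosen after seeing the data. With a mitochondrial share under 5% the ratios were 0.17 and 0.31, and within prefix P6 33 members in place of 37 were past 2-fold higher and 14 in place of 7 lower, against 59.4% and 21.2% of all genes. Without the highest cell of each gene in each group 51 were higher and 3 lower, against 68.7% and 10.5%. Structural subunits alone gave 4 lower in either comparison. Over all prefixes the 15 higher members became 8 as the mean of cells, 8 in thinned cells and 8 with a pseudocount of 10 cpm, against 23.6%, 23.7% and 18.96% of all genes. Leaving out each cell gave 32 to 37 higher and 6 to 10 lower members within prefix P6, and 11 to 18 and 5 to 9 over all prefixes. The cause of these shifts was not tested. Depth limits the members seen in few cells, and the 11 P6- cells of prefix P6 limit the first comparison.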
